A study of Homo sapiens with 12 samples.

Results

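Gene expression after 5-aza-2'-deoxycytidine (5-aza-dC) was compared with that after mock treatment in clones of the colorectal cancer cell line Colo320DM in which TET1 was stably knocked down. The comparison used 6 of the 12 arrays of the series, chosen by their labels: 3 knockdown clones, each measured once after mock treatment and once after 1 µM 5-aza-dC for 72 h, with drug and medium renewed every 24 h. All 6 samples carried a TET1 knockdown construct, an artificial microRNA expressed with GFP from a pcDNA6.2-GW/EmGFP-miR vector, and had been selected with 1.0 mg/ml G418. Per the study's methods each clone grew from an isolated GFP-positive colony, and 2 different oligonucleotide sets against TET1 were used. The 3 replicates are thus 3 separate clones. The main fits did not pair the mock and treated arrays of a clone. Their p-values measure the spread of levels between clones within a group, not the spread of the response between clones. The other 6 arrays held 3 clones with the negative control plasmid pcDNA6.2-GW/EmGFP-miR-neg, treated in the same ways, and are used here only to show where the knockdown clones differed.

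5-aza-dC is a cytidine analogue that is incorporated into replicating DNA, where it traps DNA methyltransferases, so that methylation of CpG sites is lost as cells divide. Genes kept silent by methylation of their promoters, in particular genes normally used only in germ cells, are known to be transcribed in cancer cells after such treatment. TET1 oxidises methylcytosine and takes part in the active removal of methylation. DNA methylation itself was not measured on these arrays.

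Levels are log2 signals relative to the 75th percentile of the same array, so a level of 0 is that percentile and dim probes are negative. The 3 TET1 probes on chromosome 10 had levels of -0.02, -0.72 and -0.32, of -1.72, -2.26 and -2.22, and of 3.01, 2.92 and 2.99 on the mock arrays of knockdown clones 1, 2 and 3. On the treated arrays they had -0.64, 0.43 and -0.36, -2.54, -2.33 and -2.13, and 2.39, 3.72 and 2.79. The groups overlapped for each probe, and the changes of 0.16 ± 0.35 (SE), -0.26 ± 0.24 and -0.01 ± 0.36 did not pass the test (adjusted p = 0.895, 0.763 and 0.996). On the mock arrays of the control clones these probes had 1.11, 0.69 and 1.21, -0.55, -0.65 and -1.76, and 4.01, 3.65 and 4.05. Between 46.9% and 52.9% of spots on the 6 knockdown arrays were well above background. Of these arrays, treated clone 2 alone was on slide 2, and the spread between clones was wider after treatment (median SD of 0.361 on the log2 scale over probes measured on all 6 arrays) than without it (0.218).

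Promoters are shown for 6 genes on which the results below turn, to give the CpG sites that methyltransferases act on. Each runs from 250 bases before to 50 bases after the annotated start, is written 5′ to 3′ on the gene's strand from RefSeq (GRCh38.p14), and has each CG dinucleotide in capitals. The first 3 belong to genes with a probe undetected on the mock arrays and the next 2 to genes with a probe measured on every array. HTATIP2 is 1 of the 6 genes whose response differed between knockdown and control clones. The sequences are those of RHOXF2 at chrX:120158363-120158662 (plus strand), GTSF1 at chr12:54473553-54473852 (minus), GPAT2 at chr2:96036216-96036515 (minus), TKTL1 at chrX:154295545-154295844 (plus), GPX1 at chr3:49358304-49358603 (minus) and HTATIP2 at chr11:20363464-20363763 (plus).
RHOXF2: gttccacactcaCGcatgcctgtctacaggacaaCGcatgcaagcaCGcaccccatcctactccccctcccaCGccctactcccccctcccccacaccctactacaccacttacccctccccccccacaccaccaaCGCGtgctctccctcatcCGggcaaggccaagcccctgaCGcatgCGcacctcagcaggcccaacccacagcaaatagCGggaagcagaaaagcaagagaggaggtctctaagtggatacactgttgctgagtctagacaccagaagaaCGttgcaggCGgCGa
GTSF1: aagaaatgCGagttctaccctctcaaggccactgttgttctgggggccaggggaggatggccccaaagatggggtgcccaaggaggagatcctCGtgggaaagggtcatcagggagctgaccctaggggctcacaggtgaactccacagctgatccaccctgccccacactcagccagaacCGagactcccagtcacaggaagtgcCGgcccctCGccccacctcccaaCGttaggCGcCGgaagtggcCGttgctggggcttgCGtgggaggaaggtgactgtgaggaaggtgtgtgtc
GPAT2: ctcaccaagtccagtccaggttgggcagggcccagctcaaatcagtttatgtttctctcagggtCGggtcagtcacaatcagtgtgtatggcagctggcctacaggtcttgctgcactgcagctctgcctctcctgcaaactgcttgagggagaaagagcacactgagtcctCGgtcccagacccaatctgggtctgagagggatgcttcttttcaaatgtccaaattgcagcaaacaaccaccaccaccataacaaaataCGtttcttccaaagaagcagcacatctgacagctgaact
TKTL1: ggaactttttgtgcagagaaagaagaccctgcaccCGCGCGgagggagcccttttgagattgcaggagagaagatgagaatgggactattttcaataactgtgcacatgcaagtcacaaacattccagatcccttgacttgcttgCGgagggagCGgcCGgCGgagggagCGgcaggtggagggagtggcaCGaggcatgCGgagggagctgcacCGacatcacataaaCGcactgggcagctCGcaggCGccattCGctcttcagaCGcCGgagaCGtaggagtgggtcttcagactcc
GPX1: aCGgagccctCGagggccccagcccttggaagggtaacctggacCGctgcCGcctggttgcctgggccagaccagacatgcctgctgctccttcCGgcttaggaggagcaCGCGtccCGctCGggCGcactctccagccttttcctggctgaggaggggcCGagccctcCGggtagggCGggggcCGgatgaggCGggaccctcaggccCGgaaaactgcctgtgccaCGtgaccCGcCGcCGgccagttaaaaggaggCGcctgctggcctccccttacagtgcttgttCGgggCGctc
HTATIP2: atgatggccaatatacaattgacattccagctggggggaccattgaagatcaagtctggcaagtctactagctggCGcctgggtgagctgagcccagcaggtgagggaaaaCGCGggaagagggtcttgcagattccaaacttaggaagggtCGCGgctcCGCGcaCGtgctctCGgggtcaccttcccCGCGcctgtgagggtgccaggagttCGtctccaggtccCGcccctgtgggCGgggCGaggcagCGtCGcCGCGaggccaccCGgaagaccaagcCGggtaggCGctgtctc
They hold 13 CG dinucleotides for RHOXF2, 10 for GTSF1, 3 for GPAT2, 18 for TKTL1, 23 for GPX1 and 22 for HTATIP2, against a median of 14 over all 27194 RefSeq promoters of this length. A comparison of the promoters of raised genes with those of other tested genes is void, because a promoter was found for only 71.4% of the raised genes and 77.9% of the others.

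5-aza-dC raised 520 probes and lowered 4 in the knockdown clones, out of 25385 tested. These are 2.05% and 0.0158% of the probes tested. The raised probes with a gene symbol stood for 417 genes, 33 of them with more than 1 raised probe. For 356 of the 520 no mock array gave a signal well above background, so the change is a switch from undetected to detected RNA and its size has only a lower bound. In all, 483 tested probes were undetected on every mock array and entered the test only through the treated arrays. That filter favoured a rise, and 73.7% of these probes were called higher. Of the probes well above background on all 3 mock arrays, 82 of 22147 rose. The adjustment of their p-values also covered the probes undetected on every mock array, so the 82 are not independent of those calls. With only probes well above background on every array tested, 56 of 20735 were called higher, all of them among the 82. In bulk RNA a larger number of cells with the transcript and more transcript per cell cannot be told apart.

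All 520 raised probes were well above background on the 3 treated arrays, and on each of them every treated array was above every mock array, an order seen in 7.55% of all tested probes, while the opposite order, every treated array below every mock array, was seen in 11.4%. The 82 probes raised in the main fit and measured on all 6 arrays rose by 1.08 to 7.11 on the log2 scale. Their median was 2.48. Most transcripts moved little, since 97.0% of the 20735 tested probes measured on all 6 arrays changed by less than 1 on the log2 scale and the median over all tested probes was -0.08. The count of raised probes changed when a clone was left out. It was 120 without clone 1, 726 without clone 2 and 174 without clone 3, with 0, 11 and 0 lowered probes. These fits had fewer arrays and required a signal on only 2 of them, so the counts do not isolate an effect of the clone. Taking the clone as a replicate block gave 615 raised and 5 lowered probes, and the slide as a block, which amounts to leaving out treated clone 2, gave 457 and 12.

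**Figure D1:**
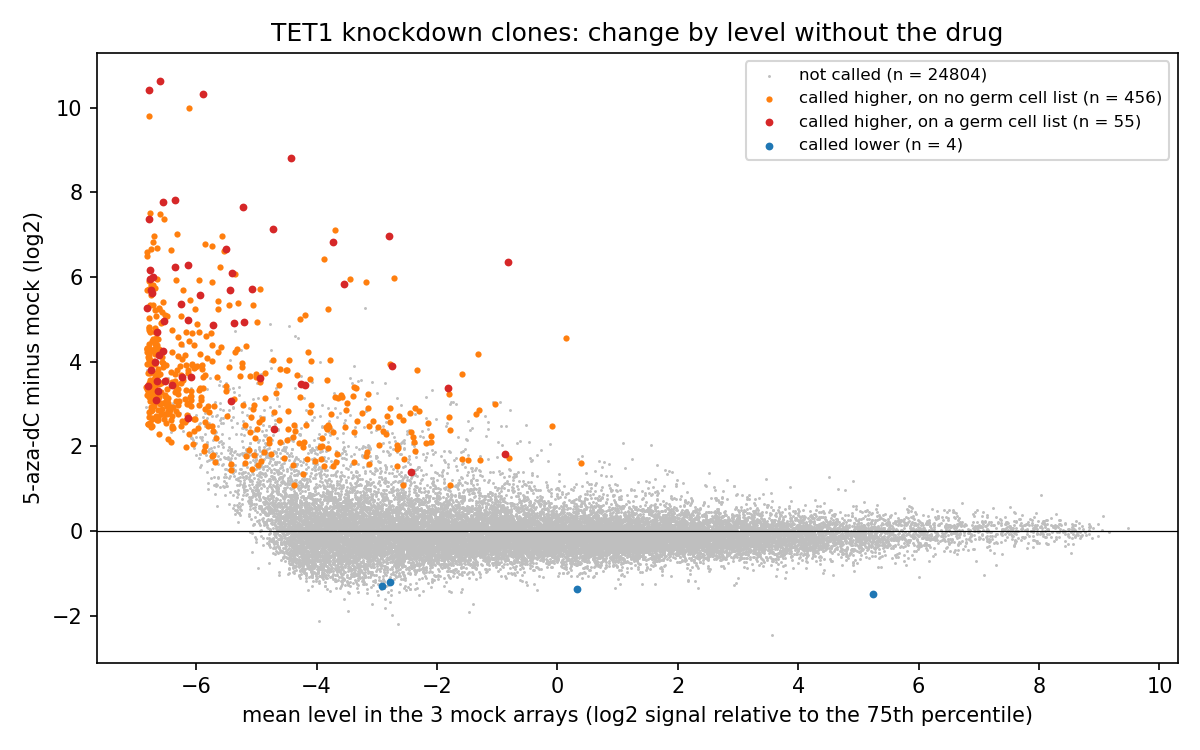
Each point is a tested probe, with its mean level on the 3 mock arrays of the knockdown clones (x axis, log2 signal relative to the 75th percentile) and its change after 5-aza-dC (y axis, log2). Raised probes (456 on no germ cell list and 55 on one) lie mainly at the dim end, where a fitted change is not a measured fold, and 66 probes of XIST and of the Y chromosome, 9 of them raised, are not drawn.

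Among raised probes with a symbol the largest bounds were those of cancer-testis genes of the X chromosome, whose products are normally made in the testis. XAGE1A had levels of -6.14, -6.62 and -7.06 on the mock arrays and 4.59, 3.61 and 3.89 on the treated arrays. Its signal was at least 378-fold higher after treatment (adjusted p = 0.000108), on a probe that matches 2 RefSeq genes. The bound sets the mean of the treated arrays against the lowest signal that counted as well above background, or the probe's own signal where that was higher. RHOXF2, a homeobox gene of the reproductive tract, had -6.70, -6.60 and -7.06 without and 3.25, 4.33 and 3.30 with the drug, at least 287-fold higher, also on a probe shared by 2 genes. MAGEB2, a member of the MAGE family of tumour antigens, had -5.91, -4.84 and -4.91 without and 2.34, 2.28 and 2.66 with the drug, at least 125-fold higher. These genes were picked for their size of change, so that their groups do not overlap follows from the choice.

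Other genes with a probe undetected on the mock arrays were CTAG2 (at least 121-fold higher, a cancer-testis antigen whose probe matches 3 genes), PAGE2B (at least 51.4-fold at its dimmer probe) and FMR1NB (at least 41.7-fold). Outside the X chromosome, GPAT2, an acyltransferase that works with the piRNA pathway in the testis, went from -6.69, -6.58 and -5.78 to 1.42, 1.43 and 1.52, at least 63.7-fold higher, while a brighter GPAT2 probe was measured on all mock arrays and rose by 3.90 on the log2 scale. GTSF1, a cofactor of the piRNA-guided PIWI proteins, went from -6.44, -6.34 and -6.88 to 1.09, 1.54 and 1.03, at least 53.9-fold higher. Its 3 clones lay close together in both groups. CD8B, which encodes a chain of the T cell co-receptor CD8, had -5.78, -6.04 and -4.79 without and 0.43, 1.29 and 1.48 with the drug, at least 47.9-fold higher.

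Among genes measured on all 6 arrays, TKTL1, a transketolase-like gene of the X chromosome, went from -4.07, -3.74 and -3.26 to 3.75, 3.81 and 2.71. This was a 138-fold increase (log2 change 7.11 ± 0.38, adjusted p = 0.00031). PNMA5, an X-linked member of the paraneoplastic Ma antigen family, went from -2.82, -2.60 and -2.75 to 3.43, 3.15 and 3.21, a 63.3-fold increase (5.98 ± 0.19), with the clones close together in both groups. GPX1, the glutathione peroxidase that removes hydrogen peroxide, went from -3.73, -3.42 and -3.21 to 2.81, 2.18 and 2.48, a 61.5-fold increase (5.94 ± 0.25), and a second GPX1 probe was at least 42.8-fold higher. The neurofilament heavy chain gene NEFH rose 58.7-fold.

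SAP25, which encodes a subunit of the SIN3 corepressor complex, had levels of 0.44, -0.15 and 0.15 without and 4.42, 5.20 and 4.50 with the drug, a 23.7-fold increase (4.57 ± 0.29). Its probe was well above background in all 3 clones before treatment. GCNA, a germ cell protein (ACRC in the array's annotation), rose 18.0-fold and the long non-coding RNA LINC00958 (LOC100506305) 15.3-fold. The X-linked PAGE2B, GAGE2B and VCX2 rose by 6.97 ± 0.56, 6.35 ± 0.58 and 5.84 ± 0.43 on the log2 scale. Without clone 1 these 3 missed the threshold (adjusted p = 0.0691, 0.0916 and 0.0512), and without clone 3 NEFH did (0.0727).

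**Figure D2:**
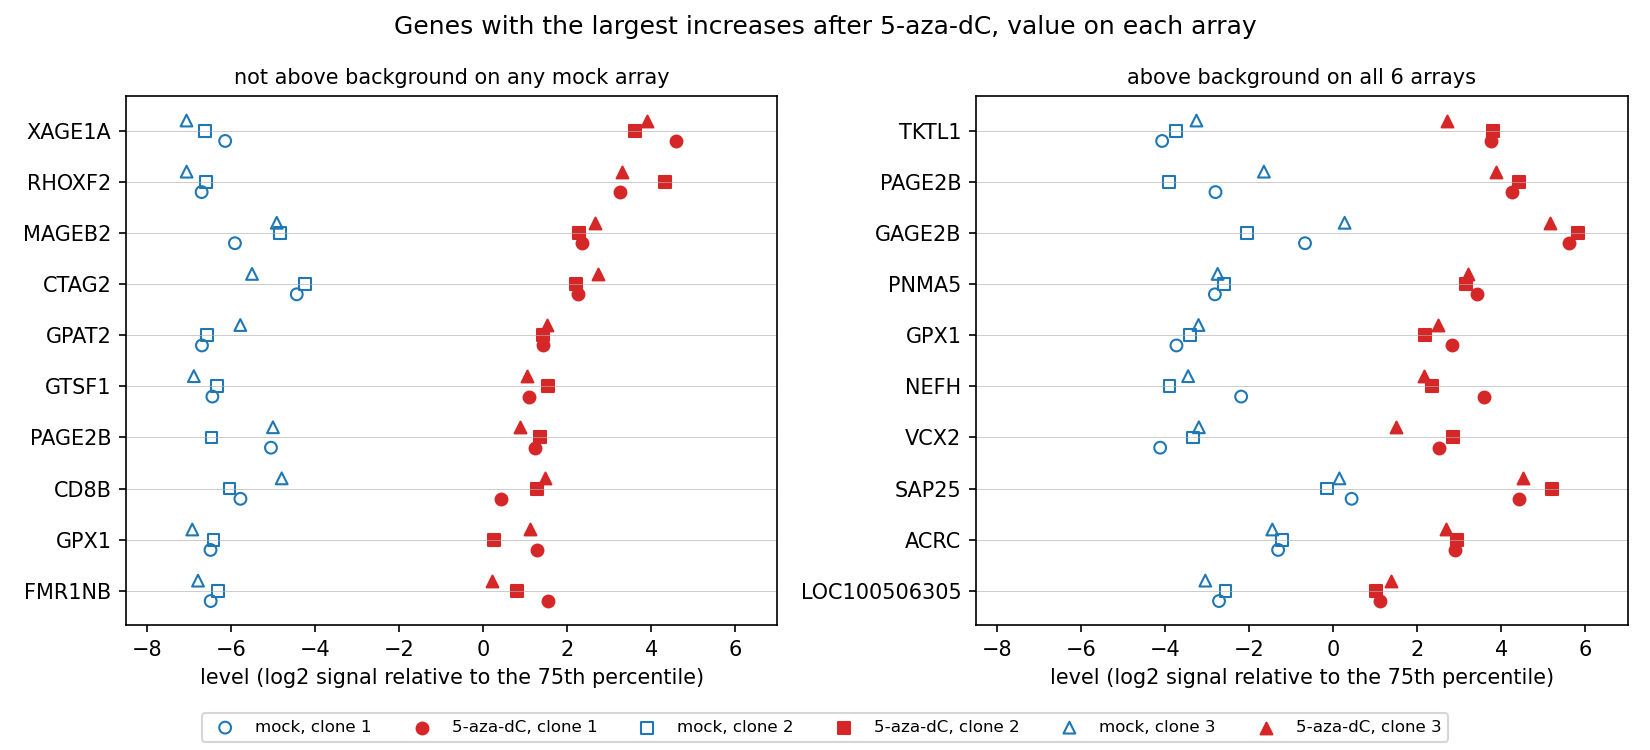
Level of each gene on every knockdown array (x axis, log2 signal relative to the 75th percentile), with open blue symbols for mock, filled red symbols for 5-aza-dC and 1 symbol shape per clone. The left panel holds the 10 genes with the largest lower bound on the fold and the right panel the 10 with the largest measured change, and in every row all 3 treated arrays lie to the right of all 3 mock arrays.

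Genes normally restricted to germ cells held most of the listed genes that rose. Of 143 genes on 5 germ cell lists (MAGE genes, other X-linked cancer-testis genes, the piRNA pathway, meiotic chromosomes and other germ cell genes) 87 could be tested, and 43 rose and 0 fell. That is 30.1% of the genes on the array, beside 1.03% of all 50598 probes on the array and 3.19% of the 690 genes on 23 other lists. Here and below the list shares count genes by their brightest probe, while the 1.03% counts probes, an unlike unit. By gene, 49.4% of those tested on the germ cell lists rose. Over all tested symbols the share was 9.82% on the X chromosome and 2.38% elsewhere. Of the 43, 28 were undetected on every mock array, and 36 of the 143 were undetected on all 6 arrays and stayed without a test. The probes of 12 of the 43 matched more than 1 RefSeq gene, so the copies of these families cannot be told apart.

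MAGE genes, which encode tumour antigens and partners of ubiquitin ligases, rose in 4 of 22 cases. Besides MAGEB2 these were MAGEB1 (at least 17.9-fold), MAGEA8 (at least 12.4-fold) and MAGEC2, which had -6.60, -6.56 and -6.50 without and -2.58, -2.17 and -2.20 with the drug (at least 4.65-fold higher). The median change over all 22 was 1.75, beside -0.04 over all probes on the array. Of the other X-linked cancer-testis genes 16 of 42 rose, with a median change of 2.11 over the 42. They came from several families, with GAGE2B, GAGE7, XAGE1A, PAGE2, PAGE2B, CTAG1A, CTAG2, SSX1, SSX4B, CT45A1, CT45A5, VCX2, RHOXF1 and RHOXF2 among them. CTAG1A (NY-ESO-1) had -6.77, -3.86 and -7.06 without and 4.07, 4.73 and 4.51 with the drug, and clone 2 gave the only mock array with a signal.

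The piRNA pathway silences transposons in the germ line with small RNAs bound by PIWI proteins. Of its 22 genes on the array 8 rose, with a median change of 0.86 over the 22. The tudor domain genes TDRD12, TDRD9 and TDRD1 rose, TDRD12 from -6.59, -6.48 and -5.97 to 0.30, -0.55 and -0.10 (at least 21.4-fold). HENMT1, which methylates the ends of piRNAs, went from -6.00, -5.34 and -4.27 to 0.27, -0.61 and -0.50 (log2 change 4.93 ± 0.48). MAEL rose by 4.90 ± 0.82, and FKBP6 also rose. HENMT1 and MAEL were detected on 1 mock array each.

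Meiotic chromosome genes rose in 6 of 30 cases, with a median change of 0.42 over the 30. HORMAD1, a protein of the unpaired chromosome axis, had -6.70, -6.56 and -7.02 without and -0.34, -1.62 and 0.19 with the drug (at least 15.4-fold). MEIOB, which works in meiotic recombination (C16orf73 in the annotation), was at least 13.1-fold higher and the synaptonemal complex gene SYCP3 at least 7.8-fold, and TEX15, TEX11 and MEI1 also rose. Of 27 other germ cell genes 9 rose, with a median change of 1.40. DAZL, a germ cell RNA-binding protein, went from -6.73, -6.58 and -7.04 to 1.45, -0.93 and 1.22 (at least 34.6-fold), with clone 2 the lowest after treatment. The RNA helicase gene DDX43 was at least 10.6-fold higher, the germ cell transcription factor SOHLH1 at least 10.4-fold and ZFP42, a marker of pluripotent cells, at least 12.8-fold.

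Every one of the 20 germ cell genes picked by size (4 a list) kept its direction in each fit with a clone left out. This follows from groups that do not overlap and is no test. Several calls did not hold. Without clone 1, MAGEA8, CTAG1A, HENMT1, MAEL, HORMAD1, TEX15, DAZL, SOHLH1 and ZFP42 missed the threshold (adjusted p = 0.0605 to 0.510). Without clone 2 only ZFP42 did (0.0962), and without clone 3 MAGEA8, CTAG1A, MAEL, TEX15 and DAZL did (0.0526 to 0.241). With the slide as a block MAEL and ZFP42 missed it (0.161 and 0.0892).

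**Figure D3:**
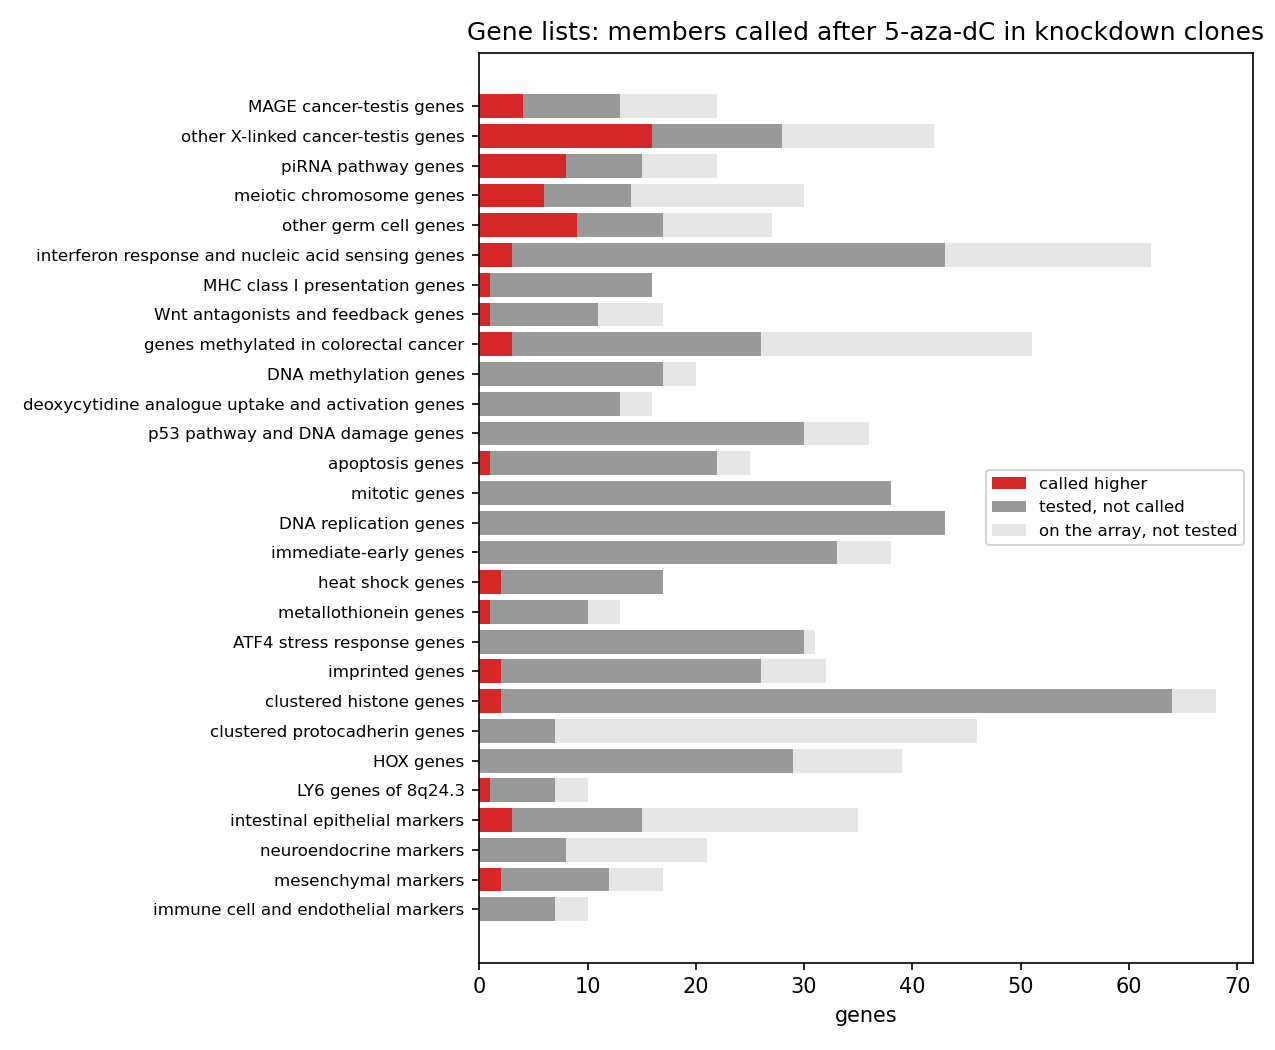
Number of genes (x axis) on each of 28 gene lists that were called higher after 5-aza-dC in the knockdown clones (red), tested but not called (dark grey) or on the array but not tested (light grey). The first 5 lists, of germ cell genes, hold 43 of the raised genes, and no listed gene was called lower.

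Interferon response and nucleic acid sensing genes, which act in the defence against viruses, rose in 3 of 62 cases (4.84%). The median change over the 62 was 0.51. On the 23 lists other than the germ cell lists 3.19% of genes rose, and of all probes on the array 1.03%. All 3 were undetected on every mock array, and the count is no result about this list. IRF7, a transcription factor of the interferon response, went from -5.70, -6.59 and -5.80 to -0.94, -2.84 and -1.13 (at least 7.44-fold, adjusted p = 0.0105). BST2, a membrane protein that tethers viruses, was at least 4.82-fold higher and the ADP-ribosyltransferase PARP14 at least 2.55-fold. Of 16 genes of MHC class I presentation only the immunoproteasome subunit PSMB8 rose (at least 2.35-fold, adjusted p = 0.0499). That is 6.25% of the list and no result about it. The call held in only 1 of 13 alternatives, without clone 3. Among others it was lost with the replicate block (0.0966), quantile normalization (0.0643), the series table (0.0503) and outlier spots kept (0.0503). The probes labelled HLA-B and HLA-C, class I heavy chain genes, had changes of 3.04 ± 0.68 and 3.04 ± 0.65 that did not pass the test (0.124 and 0.105). Their positions overlap (chr6:31321653-31321712 and chr6:31321644-31321703), so they do not measure separate genes. The HLA-B probe passed with the replicate block (0.0463), and both probes passed with clone and slide as joint blocks (0.0457 and 0.0432). HLA-B had levels of -1.69, -3.13 and -0.37 without and 1.39, 0.88 and 1.67 with the drug, so its groups did not overlap. Without clone 1 IRF7, BST2, PARP14 and PSMB8 missed the threshold (0.166, 0.350, 0.108 and 0.543), and without clone 3 the first 3 did (0.176, 0.133 and 0.069). BST2 and PSMB8 also missed it without clone 2 (0.0518 and 0.228) and with the slide as a block (0.0771 and 0.172).

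Of 51 genes listed as methylated in colorectal cancer 3 rose (5.88%), with a median change of 0.07 over the 51. TMEFF2, a transmembrane protein with follistatin-like domains, went from -6.58, -6.40 and -6.71 to -2.24, -0.68 and -1.24 (at least 8.85-fold), TUSC3, a subunit of the oligosaccharyltransferase, was at least 8.6-fold higher, and NDRG4 rose 7.98-fold, from -1.16, -1.66 and -0.29 to 1.65, 2.29 and 1.93. Among 17 Wnt antagonists and feedback genes the secreted inhibitor WIF1 rose 9.46-fold, from -2.69, -1.21 and -1.50 to 1.42, 2.07 and 0.83 (adjusted p = 0.0237). The median change over these 17 was 0.44, and 1 of them rose (5.88%). Beside 3.19% of genes on the 23 lists other than the germ cell lists, neither count is a result about its list. SOX17 had a change of 3.61 ± 0.87 that did not pass the test (0.164), and it was well above background on 1 mock array. It passed without clone 2 (0.00831), with the replicate block (0.0493) and with clone and slide as joint blocks (0.00388). With the slide as a block WIF1, TUSC3 and NDRG4 missed the threshold (0.0863, 0.0893 and 0.0581). Without clones 1, 2 and 3 in turn WIF1 had adjusted p = 0.219, 0.0663 and 0.147 and NDRG4 0.205, 0.0533 and 0.0673. TUSC3 had 0.120 without clone 2 and 0.163 without clone 3, and TMEFF2 0.0662 without clone 3.

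On the mock arrays 9 of 35 intestinal epithelial markers were well above background in all clones. Among them, named after their values were seen, were the intestinal transcription factor CDX2 (mean level 7.43), the keratin KRT18 (3.66) and the stem cell factor ASCL2 (3.15), whereas CDH1, MUC13 and LGALS4 were undetected on all 6 arrays. The median level over the 35 lay between -5.64 and -5.51 on the mock arrays and between -5.56 and -5.00 on the treated arrays. EPCAM, the epithelial adhesion molecule, had -4.10, -2.99 and -5.35 without and 0.31, 0.01 and -0.10 with the drug (4.22 ± 0.57, adjusted p = 0.0146). The keratin KRT19 was at least 5.68-fold higher, and its clones lay close together in both groups. In all, 3 of the 35 rose (8.57%), beside 1.03% of all probes on the array and 3.19% of genes on the 23 lists other than the germ cell lists. A count of 3 is no result about this list.

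Of 17 mesenchymal markers the cadherin CDH2 (3.81 ± 0.53) and the transcription factor TWIST1 (at least 2.76-fold) rose, which is 11.8% of them. Beside 3.19% of genes on the 23 lists other than the germ cell lists, a count of 2 is no result about this list. Of 21 neuroendocrine markers 0 rose and 5 were well above background on all mock arrays. Of 10 immune cell and endothelial markers 0 rose and 4 were well above background on all mock arrays. Over all probes on the array 1.03% rose, so these counts of 0 are no result about the lists. The median level lay between -6.49 and -5.51 without and between -5.32 and -4.76 with the drug for the 21 neuroendocrine markers, between -4.33 and -3.65 and between -2.35 and -0.89 for the 17 mesenchymal markers, and between -4.48 and -4.06 and between -4.13 and -3.76 for the 10 others. Their part in the other results was not tested. Without clone 1 EPCAM and CDH2 missed the threshold (adjusted p = 0.283 and 0.297), without clone 3 EPCAM and CDH2 did (0.0778 and 0.0842), and with the slide as a block EPCAM and CDH2 did (0.0771 and 0.0860).

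Of 17 heat shock genes 2 rose (11.8%), beside 1.03% of all probes on the array and 3.19% of genes on the 23 lists other than the germ cell lists. A count of 2 is no result about this list. HSPA1A, the stress-inducible HSP70, went from -6.65, -6.53 and -6.99 to 0.33, 0.30 and -0.33 (at least 24.8-fold, adjusted p = 0.000168), while HSPA2, a testis-enriched HSP70, rose 3.29-fold from -1.09, -0.64 and -0.67 to 0.97, 1.08 and 0.72. The median change over the 17 was -0.01. Of 13 metallothionein genes, each counted by its brightest probe, only MT1F rose (7.69%, at least 4.85-fold, adjusted p = 0.0409). This count is no result about the list, and MT1E rose at a probe other than its brightest. MT1G had 4.02 ± 0.77 with an adjusted p of 0.0679, which was 0.00989 without clone 2 and 0.00836 with clone and slide as joint blocks.

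0 of 31 ATF4 target genes, 0 of 36 p53 pathway and DNA damage genes and 0 of 38 immediate-early genes were called, counts that lie close to the share over all probes and are no result about these lists. The largest change among the ATF4 targets was that of DDIT4 (1.71 ± 0.50, adjusted p = 0.295). The cell cycle inhibitor SFN had 3.34 ± 1.11 (0.407), with mock levels of 0.19, -4.28 and -2.18 that spread widely, and the immediate-early FOSB had 1.09 ± 0.20 (0.0604). Of 25 apoptosis genes the BH3-only killer protein BIK rose, from -4.13, -4.19 and -4.51 to -0.79, -1.37 and -1.21 (3.15 ± 0.24). That is 4% of the list, close to 3.19% over the 23 lists other than the germ cell lists. Without clone 1 BIK, HSPA2 and MT1F missed the threshold (0.0546, 0.293 and 0.430), without clone 3 they did as well (0.0634, 0.185 and 0.303), and with the slide as a block MT1F did (0.150).

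Of genes of cell division, 0 of 38 mitotic and 0 of 43 DNA replication genes were called. All of them were measured on every mock array, and only 0.37% of such probes rose, so that these counts lie close to the background. Their medians were -0.21 and -0.22, beside -0.08 over all tested probes. The mitotic gene with the largest change, NUF2, had 2.71, 2.53 and 2.47 without and 2.69, 0.82 and 2.42 with the drug, so that treated clone 2 alone was low, and the replication gene POLE had -0.62 ± 0.22 (adjusted p = 0.443). Clustered histone genes had a median change of -0.42 over 68 genes, with -0.69, 0.03 and -0.61 in clones 1, 2 and 3. Of the 68, 2 rose (2.94%), close to 3.19% over the 23 lists other than the germ cell lists. They were the linker histone genes H1-1 and H1-6 (HIST1H1A and HIST1H1T in the annotation). H1-1 went from -5.37, -6.12 and -5.35 to 1.09, 0.45 and 0.34 (at least 35.7-fold), and H1-6, the testis linker histone, was at least 1.24-fold higher. It missed the threshold without clone 1 and without clone 3 (adjusted p = 0.188 and 0.0867).

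Of 20 genes that set, read or remove DNA methylation and 16 genes of deoxycytidine analogue uptake and activation, 0 were called. Those tested were measured on every mock array, where only 0.37% of probes rose, so these counts are no result about the lists. The median changes were -0.16 over the 20 and -0.35 over the 16, beside -0.04 over all probes on the array. For the 16 the medians were -0.24, -0.58 and -0.08 in clones 1, 2 and 3. Of the 13 uptake and activation genes tested, 1 had a positive change. These shifts were not tested. The methyltransferase DNMT3B had 0.82, -0.20 and 0.82 without and 1.84, 1.75 and 1.94 with the drug, groups that did not overlap (1.36 ± 0.32, adjusted p = 0.152, and 0.0448 with clone and slide as joint blocks). The methyl-binding domain protein MBD3 had -1.18 ± 0.32 (0.247), with 1.27, 0.35 and 1.35 on the treated arrays against 2.13, 2.40 and 1.97.

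Among genes with monoallelic or clustered control, 2 of 32 imprinted genes rose (6.25%), beside 3.19% over the 23 lists other than the germ cell lists. This count is no result about the list. MEST, an imprinted hydrolase-like gene, went from -6.70, -6.54 and -7.02 to -0.29, -0.41 and 0.42 (at least 21.7-fold), and the non-coding RNA H19 rose by 1.86 ± 0.27 (adjusted p = 0.0207) from levels near background. H19 missed the threshold with the slide as a block (0.0714) and without clone 1, clone 2 or clone 3 (0.296, 0.0793 and 0.163). IGF2, the neighbour of H19, had 2.91 ± 0.66 (0.132). Of 39 HOX genes and 46 clustered protocadherin genes 0 rose, and only 7 of the protocadherins reached a level at which they could be tested. Of all probes on the array 1.03% rose, so these counts of 0 are no result about the lists. Of 10 LY6 genes LY6K, a cancer-testis antigen, rose from -6.73, -6.61 and -5.92 to 0.34, 0.52 and -0.25 (at least 26.7-fold). A single raised gene (10%) is no result about this list.

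Across all 28 lists 69 of the 417 raised genes had an entry, and 348 were on no list. Lists were counted by each gene's brightest probe, by which 65 rose. SSX3, STAG3 and MT1E rose at another probe only, and 1 is not reported by name. The 4 lowered probes were much smaller changes. The potassium channel gene KCNH7 had 0.00, 0.52 and 0.45 without and -1.05, -0.94 and -1.14 with the drug (-1.37 ± 0.22, adjusted p = 0.0315), LOC100129940 changed by -1.31 ± 0.23 and the complement gene C7 by -1.20 ± 0.21, and the fourth probe had no symbol. With the replicate block the 3 named genes missed the threshold (adjusted p = 0.0508, 0.057 and 0.0686), with the slide as a block they also did (0.0541, 0.0936 and 0.0642), and so they did without clone 1 (0.271 to 0.658), clone 2 (0.0839 to 0.122) and clone 3 (0.281 to 0.554).

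Raised probes were more frequent on the X chromosome than on any other. Of 1005 tested X-linked probes 78 rose (7.76%), against 438 of 24194 elsewhere (1.81%). The next chromosomes were 16 (3.14%) and 4 (3.02%), and chromosome 20 had the lowest share (0.873%). Counted by gene, 56 of 570 X-linked symbols rose (9.82%) against 357 of 14975 (2.38%). Of the 530 X-linked symbols outside the cancer-testis lists 35 rose (6.60%). Among probes well above background on all mock arrays, 11 of 824 on the X chromosome rose (1.33%) and 71 of 21159 elsewhere (0.336%). These shares are descriptions and carry no test, because neighbouring genes and duplicated families are not independent.

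**Figure D4:**
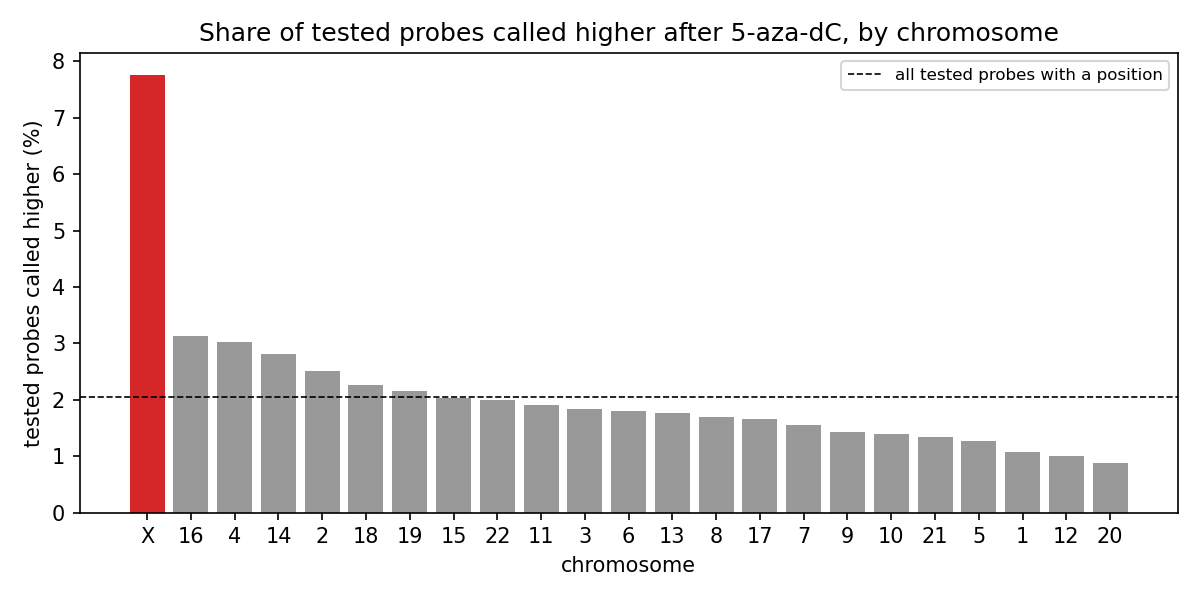
Share of tested probes called higher after 5-aza-dC (y axis, percent) on each chromosome (x axis, in order of the share), with a dashed line at the share over all tested probes with a position. The X chromosome stands at 7.76% and every other chromosome lies at or below 3.14%.

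The treated minus mock difference within a clone was positive in all 3 clones for each of the 520 probes, with medians of 3.47, 3.35 and 3.33 for clones 1, 2 and 3. Since these probes were called from the same arrays, this describes the calls and does not test them. Over the 20735 probes measured on all 6 arrays clone 2 had the widest spread, with quartiles of -0.53 and 0.43, against -0.33 and 0.09 in clone 1 and -0.24 and 0.10 in clone 3. Correlation of the responses across these probes, which are not independent, was 0.68 between clones 1 and 3, 0.36 between 1 and 2 and 0.29 between 2 and 3. Clone 2 was the clone whose treated array was on the other slide, so clone and slide cannot be told apart.

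In the control clones 5-aza-dC raised 941 of 24631 tested probes (3.82%) and lowered 368, whereas 4 were lowered in the knockdown clones. The cause of this difference in lowered probes was not tested. In both kinds of clone 336 probes rose, which is 64.6% of the 520 and 35.7% of the 941. The 2 comparisons share no arrays. In the control clones all treated arrays were on slide 2 and mock clones 1 and 2 on slide 1, so treatment and slide were partly confounded. Of the 520 probes 432 were tested in the control clones. Of these 431 had a positive change there and 0 were called lower, with a median of 3.41 against 3.57 in the knockdown clones. A probe undetected on the mock control arrays entered that test only through the treated ones, so its positive sign follows from the filter. Probes of the 520 that were not tested there are left out, so these figures do not measure agreement. TKTL1 changed by 6.93 in control and 7.11 in knockdown clones on the log2 scale. GTSF1 was at least 72.1-fold higher in control and at least 53.9-fold in knockdown clones, and HSPA1A at least 58.0-fold and at least 24.8-fold.

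The response itself differed between knockdown and control clones for 7 of 27267 probes (0.0257%), with 5 larger and 2 smaller in the knockdown clones. HTATIP2, an oxidoreductase gene described as a tumour suppressor, was undetected in mock-treated knockdown clones (-5.36, -6.59 and -5.28) and had 0.57, -0.16 and 0.00 after the drug, at least 25.4-fold higher. The control clones had 2.20, 2.22 and 2.14 without and 2.86, 2.48 and 2.42 with the drug. The fitted difference of the responses was 5.48 ± 0.48 (adjusted p = 0.00426), and 3.06 ± 0.32 at a second probe (0.0112). As the knockdown mock arrays were at background, the differences are known only to be at least 4.27 and 1.01. After treatment the knockdown clones were still below the control clones at both probes. PARP14 showed the same order, undetected in mock knockdown clones, with -3.10, -3.78 and -2.67 after the drug and between -0.66 and 0.78 on all control arrays (fitted difference 3.93 ± 0.50, adjusted p = 0.0422, at least 1.76).

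EGR1 and FOS, transcription factors induced within minutes by growth signals, differed through the control clones. EGR1 had 3.97, 4.54 and 3.23 in mock and -0.79, -1.70 and -1.44 in treated control clones, whereas in knockdown clones it had -2.47, -2.16 and -2.41 without and -1.81, -2.69 and -2.47 with the drug (difference 5.24 ± 0.51, adjusted p = 0.0089). FOS went from 3.59, 4.42 and 2.71 to -1.48, -1.23 and -1.68 in control clones and changed by -0.39 ± 0.29 in knockdown clones (difference 4.64 ± 0.55, 0.0321). The knockdown clones thus had low levels of both genes with and without the drug.

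A smaller response in the knockdown clones was called for FUCA2, a fucosidase, and SOX11, a neural transcription factor. FUCA2 was undetected in mock control clones (-7.02, -7.15 and -6.66) and had -0.10, -0.69 and 0.11 after the drug, while the knockdown clones had 2.19, 1.71 and 2.09 without and 1.99, 1.31 and 2.16 with it (fitted difference -6.90 ± 0.41, adjusted p = 0.000179, at least 4.66 in size). SOX11 was undetected on all 6 knockdown arrays and rose from -6.89, -7.03 and -6.26 to -1.53, -1.20 and -2.85 in control clones, at least 7.23-fold (fitted difference -4.87 ± 0.59, 0.0333).

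With the replicate block FUCA2 and the first HTATIP2 probe were still called (adjusted p = 0.00186 and 0.0336) and the other 5 probes were not (0.0760 to 0.331). FUCA2 was called in each of the 6 fits with a clone left out. The first HTATIP2 probe was called in 4 of the 6, not without control clone 1 or control clone 2 (0.0773 and 0.109). EGR1, FOS and the second HTATIP2 probe were called without control clone 3 and missed the threshold without any other clone (0.0643 to 0.172, 0.104 to 0.480 and 0.0745 to 0.172). PARP14 was called in 0 of the 6 (0.0745 to 0.540). SOX11 missed the threshold without knockdown clone 1, 2 or 3 (0.540, 0.121 and 0.401) and was not tested without a control clone, as too few arrays were above background. All treated control arrays were on slide 2, and mock control clones 1 and 2 and most knockdown arrays were on slide 1. Slide was thus partly confounded with clone type and, in the control clones, with treatment. With the slide as a block the 7 probes had adjusted p of 0.00101 for FUCA2, 0.00973 and 0.00583 for HTATIP2, 0.00583 for EGR1, 0.0304 for FOS, 0.0199 for PARP14 and 0.0283 for SOX11.

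**Figure D5:**
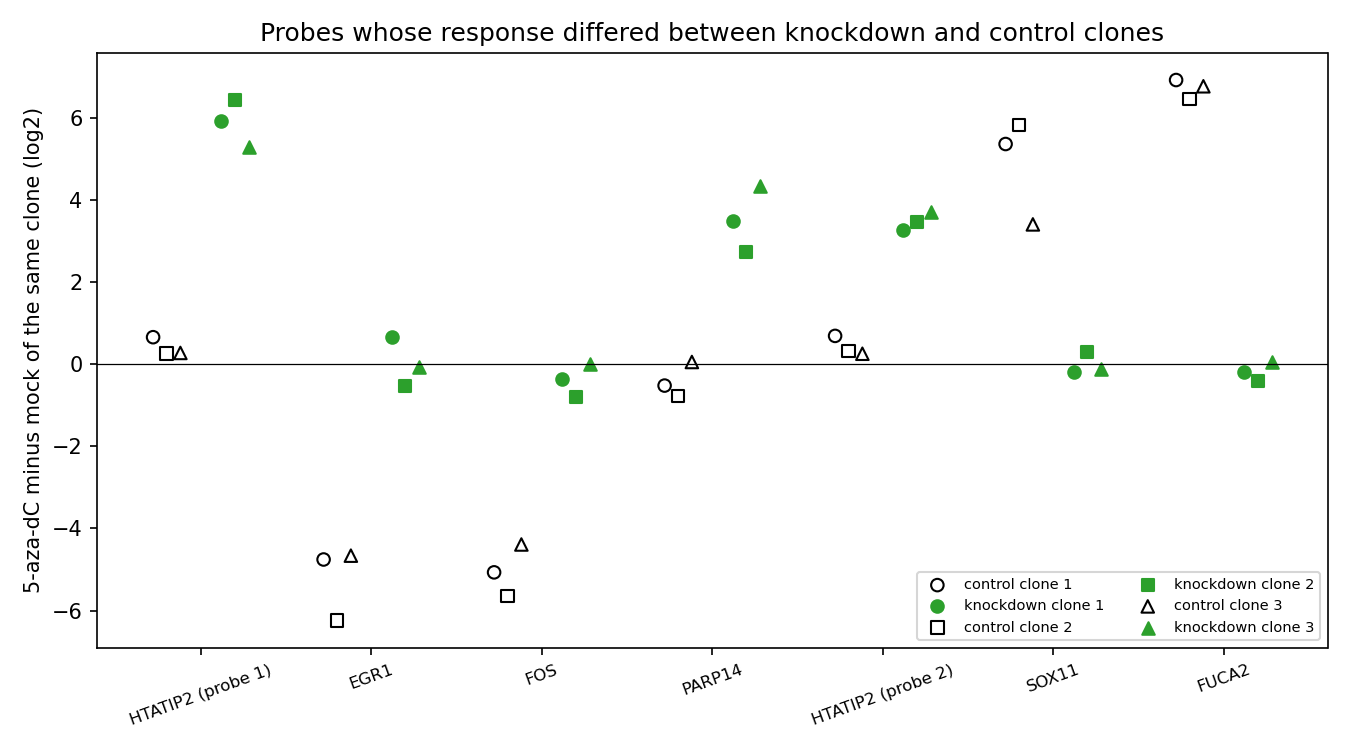
Treated minus mock difference of each clone (y axis, log2) for the 7 probes whose response differed, with open black symbols for control clones and filled green symbols for knockdown clones. For each probe the 3 knockdown clones and the 3 control clones occupy separate ranges.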

How the data were processed

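Total RNA (100 ng) of each sample was labelled and hybridised to a one-colour Agilent SurePrint G3 Human GE array. The deposited files give an intensity for each spot, made by the authors with Agilent Feature Extraction 10.7. According to the file headers a fitted background surface was subtracted, the signal was detrended over the array, and arrays were not scaled to each other. Intensities in the series table differ from these by at most 0.497%. The study's own analysis used GeneSpring and was not repeated.

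Control and outlier spots were left out, spots of a probe were averaged, and each array's 75th percentile was subtracted from its log2 values. A probe was tested if at least 50% of its spots were well above background on at least 3 of the arrays compared. In the knockdown comparison with 1 clone left out at least 2 arrays were required. Linear models with moderated variances (two-sided tests, limma 3.58.1, R 4.3.3) were fitted on the 6 knockdown arrays, and on all 12 arrays for the difference of responses, with Benjamini-Hochberg adjustment over all tested probes and a threshold of 0.05. The code was tested on simulated data. Where a group had no array well above background, folds are given as bounds, and log2 changes or differences printed for such probes are fitted values that are no measured sizes. The same number marks the same clone in the labels, and deviations from the group means correlated at 0.56, 0.47 and 0.45 between arrays of the same number, against -0.43 to 0.005 otherwise, over 25313 probes.

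Alternatives were the clone as a replicate block, the slide as a block, quantile normalization with and without normexp background correction, centring on the array median, the series table, other filters, outlier spots kept, the test named in the study's methods, and leaving out each clone. Clone and slide as joint blocks were added after the data were seen. Genes named are the 10 with the largest bound, the 10 with the largest measured change, genes called lower, TET1, up to 4 per list by size of change with called genes first, further list members counted as raised, and probes with a different response. The comparison and the gene lists were chosen with earlier results of these data known, so no list serves as independent evidence. A list's median covers all its members on the array. Symbols are those of the array's annotation, and 20446 of 21584 tested probes with a symbol matched RefSeq. Probes of XIST and of the Y chromosome are not reported by name. Of the raised list members, 1 gene is not reported here. Probe positions are on hg19, and promoters are on another build and were matched by symbol only. The number of arrays limits the precision.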

Additional observations from a re-analysis of the deposited data

Results flagged for a closer look

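The response to 5-aza-dC differed between knockdown and control clones by a test of the difference (limma, all 12 arrays, adjusted p below the threshold) for 7 probes. On the log2 scale the fitted knockdown response was larger by 5.48 and 3.06 for the 2 HTATIP2 probes, by 5.24 for EGR1, by 4.64 for FOS and by 3.93 for PARP14. It was smaller, with differences of -6.90 for FUCA2 and -4.87 for SOX11. Where the mock arrays of one kind of clone were at background the fitted value is no measured size, and the difference is known only to be at least 4.27 and 1.01 for the HTATIP2 probes, 1.76 for PARP14 and 4.66 in size for FUCA2. For SOX11 no knockdown array gave a signal, so no bound on the difference is given. HTATIP2, PARP14, EGR1, FOS and FUCA2 had levels on the mock arrays that did not overlap between knockdown and control clones, so the response and the level without the drug cannot be told apart for them.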

How the results depend on the processing

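For 5-aza-dC in the knockdown clones, the 520 raised and 4 lowered probes became 254 raised with normexp correction and quantile normalization together, 56 and 0 when every array had to be well above background, and 202 and 14 with the test of the study's methods. Lowered probes numbered 12 with the slide as a block, 11 after quantile normalization, 20 after centring on the array median, which shifted the median of all tested probes by -0.30, 0 without a filter and 38 with clone and slide as joint blocks. With the replicate block there were 615 raised and 5 lowered probes, 465 of the raised among the 520. Leaving out 1 clone gave 120 to 726 raised and 0 to 11 lowered. All 60 raised probes that were named kept a positive change in every alternative in which they were tested. With a clone left out or a block added this follows from groups that do not overlap. Of the 60, 24 missed the threshold with the test of the study's methods and 11 each with normexp and quantile normalization and with the slide as a block. Without clones 1, 2 and 3, 27, 7 and 20 missed it. Of 13 named raised probes measured on all mock arrays, 8 moved by over 1.5-fold with normexp and quantile normalization (TKTL1 from 7.11 to 5.64 and GPX1 from 5.94 to 4.63), and 2, PAGE2B and GAGE2B, did so without clone 2, without clone 3 and with joint blocks. The probes with a larger response in the knockdown clones, 5 in number, became 1 with the replicate block, 3 after quantile normalization and 2 when all arrays had to be above background, and 0 to 6 when 1 clone was left out. Those with a smaller response, 2 in number, became 1 with the replicate block, 5 with the slide as a block, 0 when all arrays had to be above background, and 1 to 1 when 1 clone was left out. Changes near 0 turned sign. The first TET1 probe had -0.15 with the slide as a block, -0.14 after centring on the median, -0.33 with joint blocks and -0.33 to 0.56 with 1 clone left out, and the second had -0.44 to 0.0145 with 1 clone left out. The third had 0.0403 and 0.0647 after quantile normalization without and with normexp, and -0.41 to 0.30 with 1 clone left out. EGR1 in knockdown clones had -0.11, -0.10 and -0.28 under quantile, normexp with quantile, and median settings and a lowest value of -0.29 with 1 clone left out (without clone 1), and FUCA2 had 0.0774 with the slide as a block. The causes were not tested. Signal over background limits all changes of probes undetected in mock arrays.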
